A study of Mus musculus with 9 samples.

Results

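The genes described here are 10 members of the Bcl2 family, without its best known p53 targets (Bax, Bbc3 and Pmaip1), read in mouse breast cancer cells after knockdown of Eya3. They were chosen by symbol as members of the family, at a time when earlier results of these data were known, and all 10 were found among the 55418 genes of the count table. The pro-survival members are Bcl2, Bcl2l1, Bcl2l2 and Mcl1, the pore-forming effector is Bak1, and the BH3-only members are Bcl2l11, Bid, Bad, Bmf and Bik. The study measured mRNA by sequencing in 66cl4, a mouse triple-negative breast cancer cell line, to compare cells with reduced Eya3 against control cells. Eya3 encodes a transcriptional coactivator that is also a protein phosphatase. The groups were shEya3_KD1 and shEya3_KD2, which are labelled as separate shRNA knockdowns of Eya3, and SCR, which carries a scrambled hairpin, each with 3 libraries labelled as biological replicates. All 9 libraries came from transduced cells of 1 line kept in puromycin, so no group shows the line without an shRNA vector, and the labels do not say whether each group was a pool or a clone.

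Proteins of the Bcl2 family decide whether the outer mitochondrial membrane is opened, the step that releases cytochrome c and starts the caspase cascade. Effectors such as Bak1 form the pore, pro-survival members bind and hold the effectors and the BH3-only proteins, and BH3-only proteins either occupy the pro-survival members or activate the effectors directly. In mammary cells Bcl2l11 and Bmf are known as the BH3-only proteins of lumen clearing and detachment from matrix, and Mcl1 and Bcl2l1 are the pro-survival members on which many breast cancer cells depend. Counts per gene do not separate splice forms, and Bcl2l1, Mcl1 and Bcl2l11 each have forms that differ in activity.

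The promoters of Bcl2 and Bmf are printed because these genes differed from SCR by the most among the members in the shEya3_KD1 libraries. Both sequences are the 250 bases before the transcription start in RefSeq (GRCm38.p6), 5′ to 3′ on the gene's strand. The Bcl2 window is chr1:106714291-106714540 on the minus strand, and capitals mark GC boxes (GGGCGG or its reverse complement). The Bmf window is chr2:118549687-118549936 on the minus strand, upstream of the outermost of 3 starts, and capitals mark CCAAT boxes (CCAAT or its reverse complement).
Bcl2 promoter: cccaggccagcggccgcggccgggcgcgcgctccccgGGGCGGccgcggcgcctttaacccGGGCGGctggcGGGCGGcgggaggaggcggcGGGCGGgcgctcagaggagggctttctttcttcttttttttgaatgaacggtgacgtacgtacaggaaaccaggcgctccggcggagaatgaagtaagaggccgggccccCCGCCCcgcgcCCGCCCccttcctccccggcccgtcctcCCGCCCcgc
Bmf promoter: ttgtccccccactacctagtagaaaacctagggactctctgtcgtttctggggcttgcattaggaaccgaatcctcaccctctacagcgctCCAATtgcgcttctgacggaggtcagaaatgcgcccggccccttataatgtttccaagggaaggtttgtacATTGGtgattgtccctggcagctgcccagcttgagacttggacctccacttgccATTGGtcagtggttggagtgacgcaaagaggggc

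The Bcl2 window held 7 GC boxes and no CCAAT box, with 74.8% GC and 36 CG dinucleotides. The Bmf window held 3 CCAAT boxes and no GC box, with 54.0% GC and 8 CG dinucleotides. Over the 32851 mouse promoters in the same table the median was 52.4% GC with 6 CG dinucleotides. Searched on both strands, a GC box was present in 32.7% of these promoters and a CCAAT box in 33.9%. Of the 9 members with a RefSeq promoter (Bik had no entry), 6 held a GC box and 2 a CCAAT box in the window before their outermost start. Other listed starts of Bcl2l1, Bmf, Bcl2l11 and Bad were not searched, while the 32851 promoters count every listed start. None of these 9 windows held TATAAA (12.4% of all promoters), CACGTG (6.02%) or the core of the MEF3 motif, TCAGGTT (3.49%). The DNA-binding partners of Eya proteins are known to recognise the MEF3 motif. A match is only a match of letters in this window.

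The libraries held between 27758862 and 52691960 counts, with the lowest total in shEya3_KD2 replicate 2. Eya3 averaged 23.1 ± 1.71 CPM in shEya3_KD1, 37.5 ± 3.02 CPM in shEya3_KD2 and 72.9 ± 5.56 CPM in SCR (SD, n = 3 each; CPM is the count scaled to library size after TMM normalisation), and it was lower in all knockdown libraries. Of the mammary epithelial markers, Krt8 averaged 1315 CPM in shEya3_KD1, 793 CPM in shEya3_KD2 and 679 CPM in SCR, while Epcam had no counts and Cdh1 had 36 counts over the 9 libraries. The other keratins were lower: Krt14 averaged 0.561 CPM in shEya3_KD1, 11.8 CPM in shEya3_KD2 and 1.32 CPM in SCR, Krt18 averaged 0.955 CPM in shEya3_KD1, 2.62 CPM in shEya3_KD2 and 0.0277 CPM in SCR, and Krt5 averaged 0.506 CPM in shEya3_KD1, 0.0332 CPM in shEya3_KD2 and 0.0211 CPM in SCR. Of the receptors that define the triple-negative label, Pgr had no counts, Esr1 averaged 14.8 CPM in shEya3_KD1, 16.0 CPM in shEya3_KD2 and 7.12 CPM in SCR, and Erbb2 averaged 65.4 CPM in shEya3_KD1, 67.1 CPM in shEya3_KD2 and 53.6 CPM in SCR. Markers of macrophages summed to between 3.37 and 13.1 CPM in every library and were mostly Cd68, with C1qa and C1qc at 0. The labels do not say how the replicate cultures were separated, so p-values measure the spread between these libraries.

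By length, Mcl1, Bak1 and Bcl2l1 were the most abundant members and Bmf and Bik the least. Levels are compared between genes as RPKM, CPM divided by the length of the merged exons in kilobases. Mcl1 had a level of 73.0 ± 0.944 RPKM in shEya3_KD1, 63.7 ± 1.09 in shEya3_KD2 and 67.6 ± 2.64 in SCR. Bak1 had 49.3 ± 2.81 in shEya3_KD1, 54.4 ± 1.96 in shEya3_KD2 and 55.1 ± 1.71 in SCR on this scale. Bcl2l1 had 27.2 ± 0.954 in shEya3_KD1, 36.1 ± 1.29 in shEya3_KD2 and 23.6 ± 0.834 in SCR. In SCR the order then ran through Bid (17.8), Bad (10.2), Bcl2l2 (4.61), Bcl2l11 (2.30) and Bcl2 (1.40), and the libraries of neighbouring members in this order did not overlap. In both knockdown groups the ranges of Bcl2l11 and Bcl2 overlapped, with Bcl2 between 2.27 and 2.36 in shEya3_KD1 and between 2.05 and 2.87 in shEya3_KD2. Bik and Bmf were below 0.15 in every library on this scale.

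Within the summed level per length of the pro-survival members, Mcl1 made up 68.0% ± 0.636 in shEya3_KD1, 59.3% ± 1.27 in shEya3_KD2 and 69.5% ± 1.65 in SCR. Bcl2l1 made up 25.3% ± 0.360 in shEya3_KD1, 33.6% ± 0.549 in shEya3_KD2 and 24.3% ± 1.23 in SCR (SD, n = 3 each). The shEya3_KD2 libraries therefore stood apart from both other groups, while the shEya3_KD1 and SCR ranges overlapped for both genes. The order at the top depends on the gene length used: with the length of the longest transcript, Bcl2l1 had 64.5 and Mcl1 63.7 in shEya3_KD2, while Mcl1 remained ahead in SCR at 67.6, against 42.1 for Bcl2l1.

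**Figure D1:**
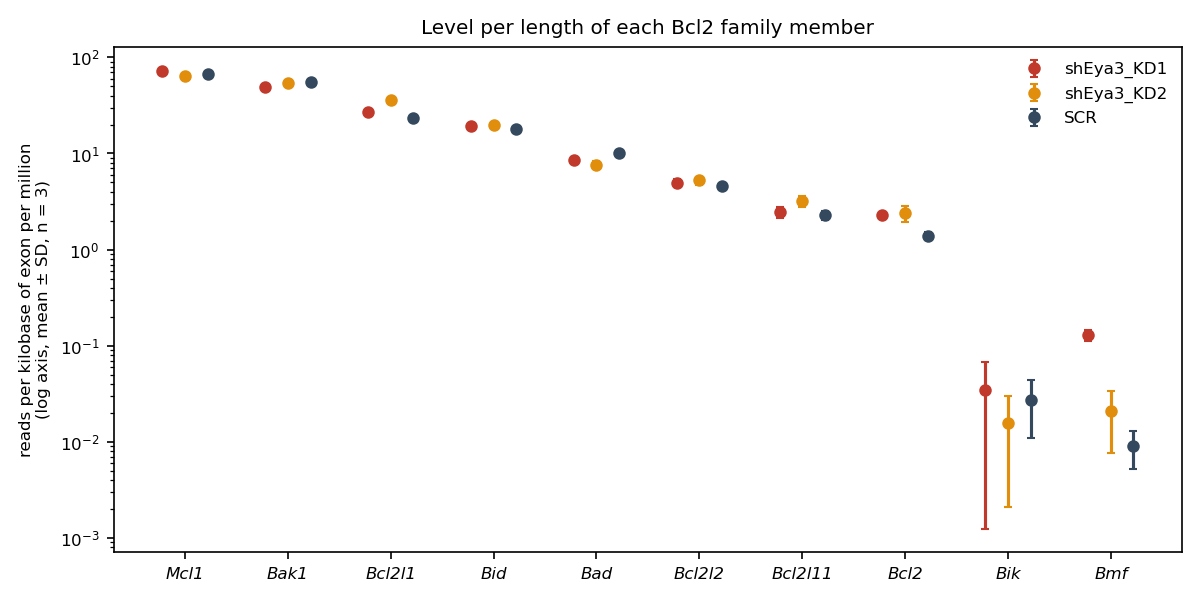
Levels of the 10 members in RPKM over merged exons (log axis), as mean and SD of 3 libraries, for shEya3_KD1 (red), shEya3_KD2 (orange) and SCR (blue), ordered by the SCR mean. Mcl1 at 67.6 and Bak1 at 55.1 lead in SCR, and Bmf is the member whose groups are farthest apart.

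Of the 10 members, 9 had enough counts to be tested, all but Bik. Bmf passed the filter only through the shEya3_KD1 libraries, where it is high, and with shEya3_KD2 and SCR fitted alone 8 members were tested. Between shEya3_KD1 and SCR, Bcl2, Bcl2l1 and Bmf rose and Bad fell, which is 4 of 9 members beside 50.3% of all 15914 genes tested (24.1% rose and 26.2% fell). Between shEya3_KD2 and SCR, Bcl2, Bcl2l1 and Bcl2l11 rose and Bad fell, again 4 of 9, beside 45.3% of all genes (23.0% rose and 22.3% fell). The shares of members called were thus close to those of all genes. The median log2 fold change of the members was 0.11 in shEya3_KD1 and 0.18 in shEya3_KD2, beside 0.01 in shEya3_KD1 and -0.00438 in shEya3_KD2 over all genes. A call is an adjusted p under 0.05 from the quasi-likelihood test of edgeR, adjusted by Benjamini-Hochberg over all genes, and the comparisons with SCR share the SCR libraries.

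**Figure D2:**
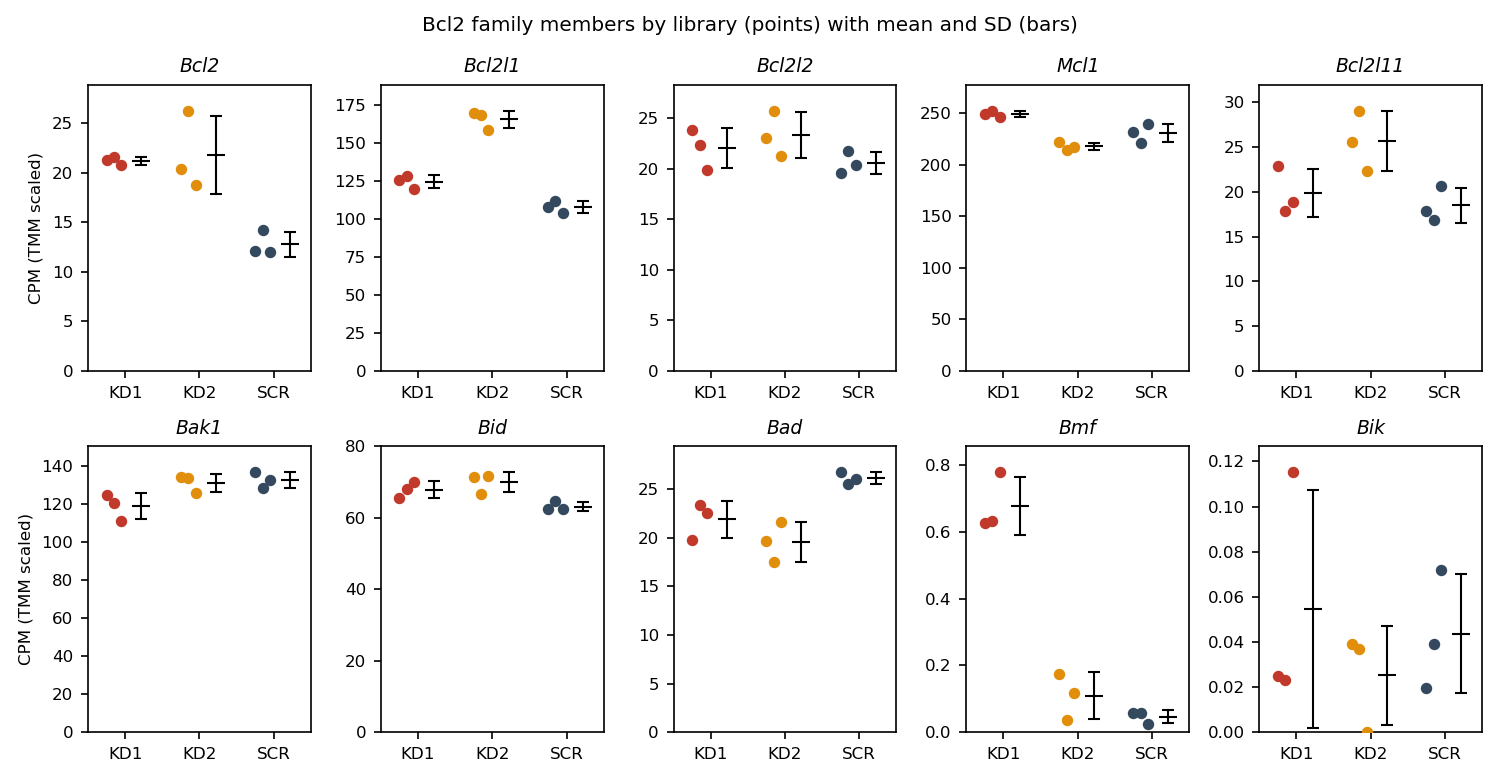
CPM after TMM scaling in each library (points), with mean and SD (bars), for the 10 members in shEya3_KD1, shEya3_KD2 and SCR; each panel has its own axis, starting at 0. Bcl2 and Bcl2l1 are above SCR and Bad below it in every knockdown library, and Bmf is high in the 3 shEya3_KD1 libraries.

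Bcl2, the founding pro-survival member, was higher in both knockdowns. It was at 21.3, 21.6 and 20.8 CPM in shEya3_KD1, 20.4, 26.3 and 18.8 CPM in shEya3_KD2, and 12.1, 14.3 and 12.0 CPM in SCR. Every knockdown library was above every SCR library, and the highest value was in the shallowest library, shEya3_KD2 replicate 2. The log2 fold change was 0.73 ± 0.11 (SE) in shEya3_KD1 (adjusted p = 7.63e-05, edgeR) and 0.76 ± 0.11 in shEya3_KD2 (adjusted p = 8.37e-05, edgeR). Between the knockdowns Bcl2 was not called, at 0.03 ± 0.11 for shEya3_KD2 against shEya3_KD1 (adjusted p = 0.833, edgeR). The gene lies at mm10 chr1:106538178-106714274 on the minus strand, and the antisense gene D630008O14Rik, which shares 558 exon bases with it, had 2 counts in shEya3_KD1, 3 in shEya3_KD2 and 0 in SCR. In bulk RNA a change in every cell cannot be told apart from a change in the share of cells that express a gene.

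Bcl2l1, which encodes Bcl-xL and its shorter pro-death form, was highest in shEya3_KD2. It was at 126, 128 and 120 CPM in shEya3_KD1, 170, 169 and 159 CPM in shEya3_KD2, and 108, 112 and 104 CPM in SCR. No library of one group overlapped another group. Against SCR the log2 fold change was 0.20 ± 0.06 in shEya3_KD1 (adjusted p = 0.0120, edgeR) and 0.62 ± 0.06 in shEya3_KD2 (adjusted p = 1.76e-06, edgeR). The difference between the knockdowns was itself called, at 0.41 ± 0.06 for shEya3_KD2 against shEya3_KD1 (adjusted p = 5.98e-05, edgeR). The shEya3_KD1 call rests on single libraries: it was lost without SCR replicate 3 (adjusted p = 0.0923, edgeR) and without shEya3_KD1 replicate 2 (adjusted p = 0.0698, edgeR).

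Mcl1, the short-lived pro-survival member, was not called against SCR in either knockdown. It was at 249, 253 and 246 CPM in shEya3_KD1, 222, 214 and 218 CPM in shEya3_KD2, and 232, 221 and 239 CPM in SCR. The shEya3_KD1 libraries were above and most shEya3_KD2 libraries below the SCR range, so the knockdown means lay on opposite sides of SCR. Against SCR it stood at a log2 fold change of 0.11 ± 0.06 in shEya3_KD1 (adjusted p = 0.135, edgeR) and -0.08 ± 0.06 in shEya3_KD2 (adjusted p = 0.267, edgeR). Between the knockdowns Mcl1 fell by 0.19 ± 0.06 in shEya3_KD2 against shEya3_KD1 (adjusted p = 0.0130, edgeR). That call was lost without shEya3_KD1 replicate 2 (adjusted p = 0.0616, edgeR) and without the filter on low counts (adjusted p = 0.0653, edgeR). The gene lies at chr3:95658788-95663176 on the plus strand and overlaps no other annotated gene.

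Bcl2l2, which encodes Bcl-w, averaged 22.1 ± 1.97 CPM in shEya3_KD1, 23.4 ± 2.28 CPM in shEya3_KD2 and 20.6 ± 1.13 CPM in SCR. The 3 groups overlapped and no comparison was called, with a log2 fold change of 0.10 ± 0.09 in shEya3_KD1 (adjusted p = 0.370, edgeR) and 0.18 ± 0.09 in shEya3_KD2 (adjusted p = 0.114, edgeR). Without shEya3_KD2 replicate 3 it was called in shEya3_KD2, at a log2 fold change of 0.24. Bcl2l2 lies at chr14:54883377-54888234 on the plus strand and shares 594 exon bases with Gm20521 on the same strand, which had 0 counts.

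Bak1, the only effector among the members, averaged 119 ± 6.76 CPM in shEya3_KD1, 131 ± 4.73 CPM in shEya3_KD2 and 133 ± 4.12 CPM in SCR. All shEya3_KD1 libraries, at 125, 120 and 111 CPM, were below all SCR libraries, at 137, 129 and 133 CPM. The log2 fold change of -0.16 ± 0.06 was just outside the threshold (adjusted p = 0.0505, edgeR), and 9 of 16 alternative settings called it, DESeq2 and limma-voom included. In shEya3_KD2 the log2 fold change against SCR was -0.02 ± 0.06 (adjusted p = 0.849, edgeR), and between the knockdowns it was 0.14 ± 0.06 for shEya3_KD2 against shEya3_KD1 (adjusted p = 0.0794, edgeR). Bak1 lies at chr17:27019810-27029009 on the minus strand and shares exon bases with Ggnbp1 on the other strand, which averaged 1.16 CPM in shEya3_KD1, 1.15 CPM in shEya3_KD2 and 1.32 CPM in SCR.

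Bmf, the BH3-only protein that binds dynein light chains and is released on loss of matrix attachment, differed most in relative terms, at a low level. It had 25, 27 and 27 counts in shEya3_KD1, 9, 1 and 5 counts in shEya3_KD2, and 3, 3 and 1 counts in SCR. These counts correspond to 0.624, 0.632 and 0.778 CPM in shEya3_KD1, 0.176, 0.0369 and 0.118 CPM in shEya3_KD2, and 0.0594, 0.0590 and 0.0241 CPM in SCR. The shEya3_KD1 libraries were all above the rest, and the shEya3_KD2 and SCR libraries overlapped.

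The log2 fold change of Bmf was 3.71 ± 0.43 in shEya3_KD1 (adjusted p = 3.50e-06, edgeR). Over the summed counts of 79 in shEya3_KD1 and 7 in SCR the ratio per total count was 13.5, with an exact 95% interval of 6.27 to 34.8 that covers counting error only. In shEya3_KD2 the log2 fold change against SCR was 1.28 ± 0.60 and was not called (adjusted p = 0.0987, edgeR). Without shEya3_KD2 replicate 2, which held 1 count, that comparison was called at 1.56 (adjusted p = 0.0485, edgeR), and without shEya3_KD2 replicate 1 the log2 fold change was 0.77 (adjusted p = 0.449, edgeR). Between the knockdowns Bmf fell by 2.43 ± 0.37 in shEya3_KD2 against shEya3_KD1 (adjusted p = 7.37e-05, edgeR). Summed lymphocyte markers also lay higher in shEya3_KD1, at 1.27 to 1.36 CPM, against 0.425 to 0.605 CPM in shEya3_KD2 and 0.708 to 0.95 CPM in SCR. They were mostly Cd3g, and 2 of 5 had no counts in shEya3_KD1. Summed fibroblast markers, mostly Pdgfra, were at 42.6 to 45.3 CPM in shEya3_KD1, 28.5 to 40.9 CPM in shEya3_KD2 and 28.3 to 35.2 CPM in SCR. Within that list Col1a2 averaged 4.53 CPM in shEya3_KD1, 0.124 CPM in shEya3_KD2 and 0.0847 CPM in SCR, while Col1a1 averaged 1.30 CPM in shEya3_KD1, 2.45 CPM in shEya3_KD2 and 3.65 CPM in SCR. Summed macrophage markers were lower in shEya3_KD1, at 3.37 to 4.87 against 11.4 to 13.1 CPM in shEya3_KD2 and 10.2 to 10.7 CPM in SCR. Summed endothelial markers were also lower there, at 0.351 to 0.490 against 1.85 to 2.43 CPM in shEya3_KD2 and 3.50 to 4.11 CPM in SCR. That sum was mostly Cdh5, the only 1 of the 4 with enough counts to be tested. Cdh5 averaged 0.264 CPM in shEya3_KD1, 2.13 CPM in shEya3_KD2 and 3.72 CPM in SCR. Tek, at few counts, went the other way, at 0.0855 CPM in shEya3_KD1, 0.0065 CPM in shEya3_KD2 and 0.0292 CPM in SCR. The part of any of these marker lists in the Bmf result was not tested.

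Bcl2l11, which encodes Bim and is the best known activator of the effectors, was higher in shEya3_KD2. It was at 22.9, 17.9 and 18.9 CPM in shEya3_KD1, 25.5, 29.1 and 22.4 CPM in shEya3_KD2, and 17.9, 16.9 and 20.7 CPM in SCR. The shEya3_KD2 libraries were all above SCR, while shEya3_KD1 overlapped both other groups. The log2 fold change was 0.47 ± 0.11 in shEya3_KD2 (adjusted p = 0.00416, edgeR) and 0.11 ± 0.12 in shEya3_KD1 (adjusted p = 0.470, edgeR). Between the knockdowns it was 0.36 ± 0.11 for shEya3_KD2 against shEya3_KD1 (adjusted p = 0.0173, edgeR). The call between the knockdowns was lost without shEya3_KD1 replicate 2 (adjusted p = 0.0791), without shEya3_KD1 replicate 3 (adjusted p = 0.0657) or without shEya3_KD2 replicate 2 (edgeR).

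Bad, the BH3-only protein held by 14-3-3 proteins when phosphorylated, was lower in both knockdowns. It was at 19.8, 23.3 and 22.5 CPM in shEya3_KD1, 19.6, 17.5 and 21.6 CPM in shEya3_KD2, and 26.7, 25.5 and 26.0 CPM in SCR. Every knockdown library was below every SCR library, and the knockdowns overlapped each other. Relative to SCR the log2 fold change was -0.26 ± 0.09 in shEya3_KD1 (adjusted p = 0.0213, edgeR) and -0.41 ± 0.09 in shEya3_KD2 (adjusted p = 0.00131, edgeR). The shEya3_KD1 call was lost without SCR replicate 1 (adjusted p = 0.0642, edgeR) and without shEya3_KD1 replicate 1 (adjusted p = 0.0970, edgeR). Bad, at chr19:6941861-6951899 on the plus strand, shares 524 exon bases with Gpr137 on the other strand, and whether the counting used strand is not given in the sources used here. Gpr137 was not called, at -0.17 ± 0.08 in shEya3_KD1 (adjusted p = 0.111, edgeR) and -0.13 ± 0.08 in shEya3_KD2 (adjusted p = 0.227, edgeR).

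Bid, which is cut by caspase-8 and links death receptors to mitochondria, averaged 67.9 ± 2.32 CPM in shEya3_KD1, 69.9 ± 2.84 CPM in shEya3_KD2 and 63.1 ± 1.24 CPM in SCR. All 6 knockdown libraries were above all SCR libraries, yet neither comparison was called, with a log2 fold change of 0.10 ± 0.06 in shEya3_KD1 (adjusted p = 0.173, edgeR) and 0.15 ± 0.06 in shEya3_KD2 (adjusted p = 0.0614, edgeR). Bid was called in shEya3_KD2 without shEya3_KD2 replicate 2, at 0.18. Bid, at chr6:120891930-120916853 on the minus strand, shares 628 exon bases with Bcl2l13 on the other strand, a gene that fell in both knockdowns. Whether the counting used strand is not given, so it is not known whether counts of the pair are mixed.

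Bik, a BH3-only protein of the endoplasmic reticulum, had 1, 1 and 4 counts in shEya3_KD1, 2, 1 and 0 counts in shEya3_KD2, and 1, 2 and 3 counts in SCR. The ratio of summed counts per total was 1.20 in shEya3_KD1 against SCR, with an exact 95% interval of 0.321 to 4.49. In shEya3_KD2 against SCR it was 0.573, with an interval of 0.0927 to 2.68. These intervals cover counting error only, and at this depth the counts of Bik allow either a rise or a fall. Bik lies at chr15:83526862-83544634 on the plus strand.

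**Figure D3:**
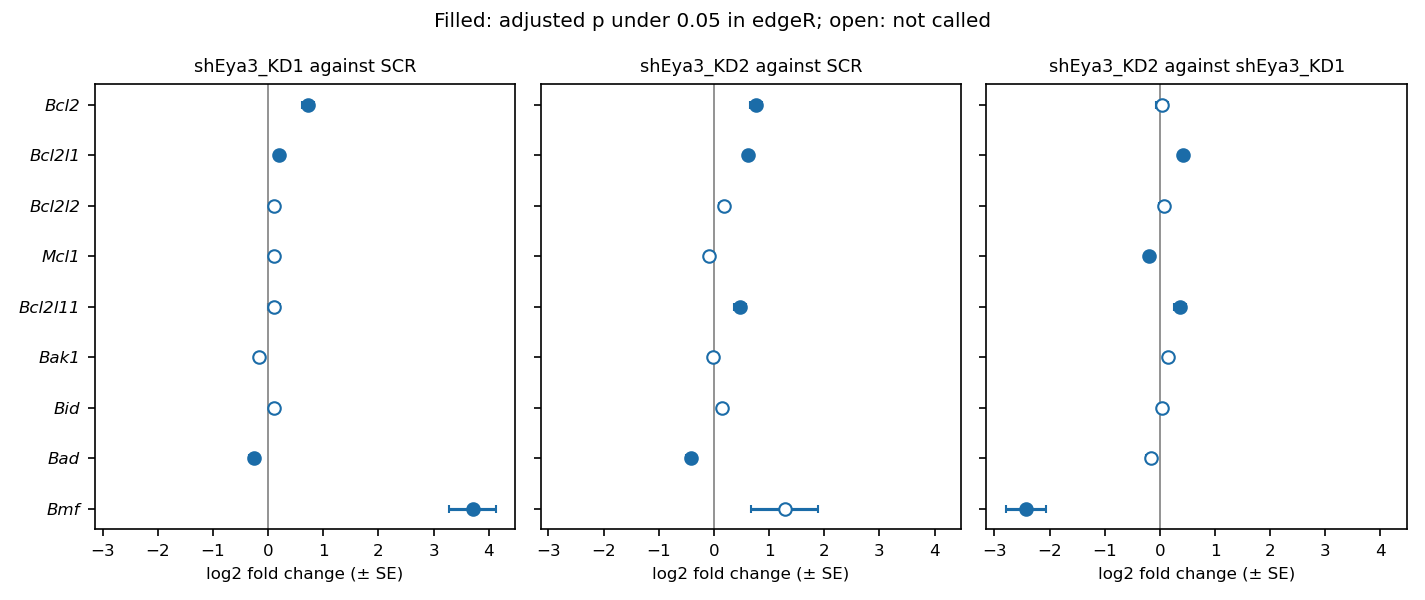
Log2 fold change with SE of the 9 tested members for each knockdown against SCR (left and middle) and for shEya3_KD2 against shEya3_KD1 (right); filled points have an adjusted p under 0.05 in edgeR. Bmf stands at 3.71 in shEya3_KD1 and -2.43 between the knockdowns, while all other members lie within 1 of zero.

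Set directly against each other, the knockdowns differed in Bcl2l1 and Bcl2l11, which rose in shEya3_KD2 against shEya3_KD1, and in Bmf and Mcl1, which fell. That is 4 of 9 members, beside 49.6% of all genes tested (27% rose and 22.5% fell). By role, 2 of 4 pro-survival members rose against SCR in each knockdown and none fell. Over all genes 24.1% rose and 26.2% fell in shEya3_KD1, and 23.0% rose and 22.3% fell in shEya3_KD2. Of the 4 tested BH3-only members, 1 rose and 1 fell in each knockdown. Bad was the one that fell, and Bmf in shEya3_KD1 or Bcl2l11 in shEya3_KD2 was the one that rose. Bmf was tested only through shEya3_KD1, where it is high. Bcl2l1, Bcl2l11 and Bmf all lie on chromosome 2, at mm10 chr2:152780668-152831728, chr2:128126038-128162547 and chr2:118528757-118549687, several megabases or more apart.

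Bmf was the only member whose log2 fold change reached 1 against SCR, and the genes with the most similar pattern were sought for it over the 9 libraries. The search covered 10841 tested genes with a mean of at least 1 CPM over the 9 libraries, with predicted genes and clone or accession names passed over. The smallest root mean square difference in log2 CPM, centred on SCR, was that of Spp1 (0.434), followed by Samd10 (0.436). A prior count of 2 was added before the log, which shrinks the differences of genes with few counts, such as Bmf. In the fit against SCR, Spp1 was at 2.68 in shEya3_KD1 and 0.56 in shEya3_KD2. Samd10 was at 3.40 in shEya3_KD1 and 0.82 in shEya3_KD2, beside 3.71 and 1.28 for Bmf. Spp1, which encodes the secreted protein osteopontin, averaged 1856 ± 59.7 CPM in shEya3_KD1, 426 ± 14.8 CPM in shEya3_KD2 and 289 ± 6.96 CPM in SCR. Samd10 averaged 2.91 ± 0.121 CPM in shEya3_KD1, 0.472 ± 0.0983 CPM in shEya3_KD2 and 0.278 ± 0.0814 CPM in SCR. Samd10 reached the mean of 1 CPM only through shEya3_KD1, where it is high, so its pattern is given as a description.

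In the rest of the Bcl2 family, 10 of 18 genes were tested. In shEya3_KD1 2 rose and 1 fell (24.1% and 26.2% of all genes), and in shEya3_KD2 4 rose and 1 fell (23.0% and 22.3% of all genes), with medians of 0.07 in shEya3_KD1 and 0.12 in shEya3_KD2 on the log2 scale. Bbc3, which encodes the p53 target Puma, averaged 11.2 CPM in shEya3_KD1, 18.5 CPM in shEya3_KD2 and 9.61 CPM in SCR. It rose in shEya3_KD2 (log2 fold change 0.95 ± 0.09, adjusted p = 9.53e-07, edgeR) and was at 0.22 ± 0.09 in shEya3_KD1 (adjusted p = 0.0566, edgeR). Bax, the other main effector, was not called, at 0.00493 in shEya3_KD1 (adjusted p = 0.956, edgeR) and 0.15 in shEya3_KD2 (adjusted p = 0.0608, edgeR).

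Among the more distant relatives, Bnip3, a mitophagy receptor, rose in both knockdowns (0.68 ± 0.12 in shEya3_KD1 and 0.54 ± 0.12 in shEya3_KD2), and Bcl2l13, also a mitophagy receptor, fell in both (-0.46 ± 0.06 in shEya3_KD1 and -0.24 ± 0.06 in shEya3_KD2). Bnip1 rose in shEya3_KD1 (0.58), and Bok (0.33) and Bnip3l (0.20) rose in shEya3_KD2. Bcl2l12, Bnip2 and Becn1 were not called. Pmaip1, which encodes the BH3-only protein Noxa, had 1 count in shEya3_KD1 and 0 in both other groups, and Hrk had none. The Bcl2a1 genes together had 3 counts, all in SCR, and Bcl2l10, Bcl2l14 and Bcl2l15 were too low to test.

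The medians of the 5 other pathway lists described next lay between -0.10 and 0.04 in shEya3_KD1 and between -0.08 and 0.21 in shEya3_KD2 on the log2 scale, beside medians near 0 over all genes. The counts of each list stand beside 24.1% risen and 26.2% fallen over all genes in shEya3_KD1, and 23.0% risen and 22.3% fallen in shEya3_KD2. Downstream of the pore, the list of apoptosome and caspase genes had 11 of 12 tested, of which 3 rose and 3 fell in shEya3_KD1 and 5 rose and 2 fell in shEya3_KD2. Apaf1, the scaffold of the apoptosome, fell in shEya3_KD1 (-0.67 ± 0.08). Dffa, the inhibitor of the caspase-activated nuclease, fell in both (-0.83 ± 0.07 in shEya3_KD1 and -0.81 ± 0.07 in shEya3_KD2). Casp2, an initiator caspase, rose in shEya3_KD2 (0.75 ± 0.08). Of the 6 tested inhibitors of apoptosis and their antagonists, none rose and 2 fell in shEya3_KD1, and 1 rose and 3 fell in shEya3_KD2. Htra2 fell in both (-0.35 in shEya3_KD1 and -0.26 in shEya3_KD2), and Diablo (-0.31) and Birc5 (-0.28) fell in shEya3_KD2.

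In the death receptor arm, which reaches mitochondria through Bid, none of 9 tested genes rose and 2 fell in shEya3_KD1, while 5 rose and 1 fell in shEya3_KD2. Set against shEya3_KD1, 6 of the 9 rose in shEya3_KD2 and none fell, beside 27% risen and 22.5% fallen over all genes. Fas, a death receptor, fell in both (-1.24 ± 0.16 in shEya3_KD1 and -0.97 ± 0.15 in shEya3_KD2). Tnfsf10, which encodes the death ligand Trail, averaged 0.192 CPM in shEya3_KD1, 2.22 CPM in shEya3_KD2 and 0.482 CPM in SCR, and rose in shEya3_KD2 (2.11 ± 0.37). Tnfrsf1a, a receptor for tumour necrosis factor, also rose in shEya3_KD2 (0.61 ± 0.07).

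Of 10 genes for mitochondrial channels and outer and inner membrane partners, 4 rose and none fell in shEya3_KD1, and 3 rose and 2 fell in shEya3_KD2. Slc25a4, an ADP/ATP carrier, rose in shEya3_KD1 (0.28 ± 0.08) and fell in shEya3_KD2 (-0.49 ± 0.08). Vdac2, the channel that holds Bak1 at the outer membrane, fell in shEya3_KD2 (-0.26 ± 0.07), and Mtch1 rose in shEya3_KD1 (0.41 ± 0.07). Of 14 tested regulators of the members, 4 rose and 2 fell in shEya3_KD1, and 6 rose and 2 fell in shEya3_KD2. Map2k1, the kinase upstream of the Erk proteins that phosphorylate Bim, rose in both (0.21 ± 0.06 in shEya3_KD1 and 0.64 ± 0.06 in shEya3_KD2). Stat3, a transcription factor known to act on Bcl2l1, rose in shEya3_KD2 (0.57 ± 0.09), and Rela, the NF-kappaB subunit, fell in shEya3_KD1 (-0.73 ± 0.08). Dynll1 and Dynll2, the dynein light chains that bind Bim and Bmf, were picked out after their values were seen: Dynll1 fell in shEya3_KD2 (-0.47 ± 0.09), and Dynll2 was not called.

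**Figure D4:**
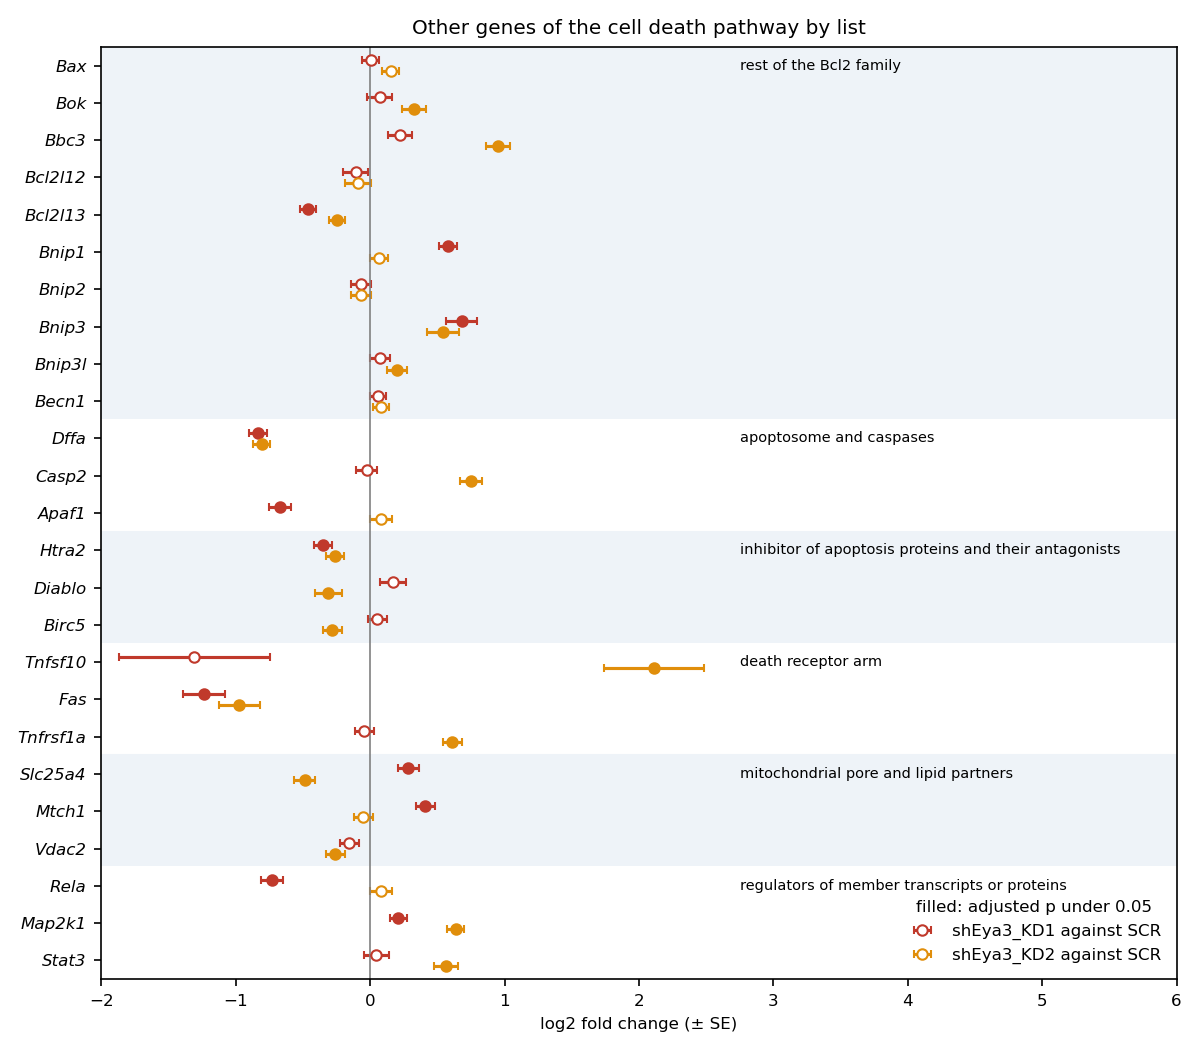
Log2 fold change with SE of other genes of the cell death pathway, grouped by list, for shEya3_KD1 against SCR (red) and shEya3_KD2 against SCR (orange); filled points have an adjusted p under 0.05 in edgeR. Fas and Dffa are below zero in both, and Tnfsf10 is at 2.11 in shEya3_KD2.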

How the data were processed

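Raw counts per gene for 9 libraries were deposited by the authors as 1 table, and every value column was matched to a sample by name (0 columns were left unmatched). Per the submitters' processing notes, FastQC, MultiQC and STAR were used with mm10; which counting tool, annotation and strand option were used was not stated in these sources. The labels' protocols name an mRNA library kit and mention no molecular identifiers. CPM values and RPKM were computed from these counts.

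Counts were tested with edgeR 4.0.16 in R 4.3.3 (filterByExpr, TMM scaling, robust quasi-likelihood fit of all 9 libraries with group as the only term) and adjusted by Benjamini-Hochberg over 15914 genes. Calls have an adjusted p under 0.05. The script was tested on simulated counts. Positions and lengths come from GENCODE M21, and promoters from RefSeq. Each result was recomputed with DESeq2 1.42.0, limma-voom (limma 3.58.1) or RLE scaling, without the low-count filter or with one at 5 CPM in 3 libraries, on the compared groups alone, with the replicate number as a block, and with each library left out. A permutation test of 3 against 3 libraries cannot go below p = 0.1 and was not used. Pairs of replicates differed beyond counting noise, with a chi-square statistic of 9.24 to 45.2 for each degree of freedom. Genes named are the members, Eya3, the tested rest of the family, from each pathway list the 3 genes with the largest called change against SCR, and the 2 genes most like any member with a log2 fold change of 1 or more. Outside this rule, Dynll1, Dynll2, cell type markers, genes whose exons overlap a member and chromosomal neighbours of Bmf and Bcl2 are also named, Dynll1 and Dynll2 and the neighbours after their values were seen. Members and lists were chosen with earlier results of these data known.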

Additional observations from a re-analysis of the deposited data

How the results depend on the processing

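Of 428 member fold changes recomputed under alternative settings, 400 kept their direction and side of the threshold, 9 lost a call, 14 gained one and 5 changed sign. The Bcl2 calls against SCR, the Bmf call in shEya3_KD1 and the Bcl2l1, Bcl2l11 and Bad calls in shEya3_KD2 held under every alternative that could test them. Bmf was not tested at 5 CPM in 3 libraries or, for shEya3_KD2 and SCR alone, with only the groups compared, and Bik could be tested only with no filter.

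Between shEya3_KD1 and SCR 1 member fell. Bak1 joined Bad to make 2 under 5 CPM in 3 libraries, DESeq2, limma-voom, only the groups compared and the replicate block. Leaving out 1 library gave 0 to 2 fallen. Over all genes 2974 of 10514 fell under 5 CPM in 3 libraries, and 4270 of 15552 with only the groups compared. Of 15914 genes, 4074 fell with DESeq2, 4170 with limma-voom and 4208 with the replicate block, beside 4172 in the main fit. Between shEya3_KD2 and SCR leaving out 1 library gave 3 to 5 risen. Between shEya3_KD2 and shEya3_KD1 2 members fell, but 1 under 5 CPM in 3 libraries, which leaves Bmf untested. With no filter 1 fell, as Mcl1 was not called. Leaving out 1 library gave 2 to 5 called, 1 to 3 risen and 1 to 3 fallen. The counts over all genes moved as well when 1 library was left out, among 16190 to 16272 genes tested. Between shEya3_KD1 and SCR 3808 to 4472 genes fell, and between shEya3_KD2 and SCR 3032 to 3878 rose. Between the knockdowns 6747 to 8433 genes were called, with 3809 to 4531 risen and 2912 to 3902 fallen.

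The sign changes were all of values that were not called. Leaving out 1 library moved the log2 fold change of Bcl2l11 in shEya3_KD1 between -0.006733 and 0.1824 (negative without shEya3_KD1 replicate 1), that of Bak1 in shEya3_KD2 between -0.04438 and 0.0133 (positive without SCR replicate 1 or shEya3_KD2 replicate 3), and that of Bcl2 between the knockdowns between -0.1121 and 0.1287 (negative without shEya3_KD2 replicate 2). Under 5 CPM in 3 libraries the last was -0.0001756. The cause was not tested. With the longest transcript as the length, levels of 6 members in SCR moved by more than their SD, such as Bcl2l1 at 42.1.

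Deviations of same-numbered replicates correlated at between -0.108 and 0.00463 for shEya3_KD1 with SCR and between -0.0326 and 0.196 for shEya3_KD2 with SCR. For the knockdowns the correlations were between -0.0833 and 0.179. So few pairs cannot decide whether the numbers pair the libraries, and no conclusion is drawn. With the replicate block 8093 genes were called between shEya3_KD1 and SCR, beside 8011 without it. Between shEya3_KD2 and SCR 7329 were called with the block, beside 7210 without it. Bak1, in shEya3_KD1 against SCR, was the only member whose call changed. The depth limits Bmf and Bik, which had at most 27 counts and 4 counts in a library.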

Other observations

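Genes next to Bmf and Bcl2 on the chromosome were read for their own values and were picked by position, after the values of the members were seen. For Bmf and for Bcl2 these were the 2 nearest tested genes on each side, among symbols that stand for a single annotated gene. Srp14, a signal recognition particle subunit 49046 bases from Bmf, fell in both knockdowns. Its log2 fold change was -0.56 ± 0.11 in shEya3_KD1 (adjusted p = 0.000965, edgeR) and -0.82 ± 0.11 in shEya3_KD2 (adjusted p = 7.81e-05, edgeR). Inafm2, 196071 bases away, rose in both (0.53 ± 0.07 in shEya3_KD1 and 0.64 ± 0.07 in shEya3_KD2). Eif2ak4, a kinase that senses amino acid shortage, rose in shEya3_KD2 (0.37 ± 0.10), and the mitotic checkpoint kinase Bub1b fell in shEya3_KD1 (-0.26 ± 0.08). Bmf itself was at 3.71 in shEya3_KD1, over 7 counts in SCR, and whether these genes share a change with it was not tested. Of the genes next to Bcl2, Kdsr, an enzyme of sphingolipid synthesis 6185 bases away, fell in shEya3_KD1 (-0.41 ± 0.07, adjusted p = 0.000242, edgeR). Kdsr was at 0.05 ± 0.07 in shEya3_KD2 (adjusted p = 0.591, edgeR), while Bcl2 rose in both. A530053M12Rik averaged 0.430 CPM in shEya3_KD1, 0.1495 CPM in shEya3_KD2 and 0.0738 CPM in SCR. It passed the low-count filter only with the shEya3_KD1 libraries, where it is high. Its log2 fold change of 2.41 ± 0.57 in shEya3_KD1 is therefore given as a description. Vps4b rose in shEya3_KD2 (0.25 ± 0.06, adjusted p = 0.00453, edgeR), and Gm6651 was not called in either knockdown.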
